A study of Mus musculus with 12 samples.

Results

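The integrated stress response gene set described here holds 9 genes, Atf4, Atf5, Ddit3, Trib3, Asns, Chac1, Sesn2, Slc3a2 and Slc7a5, chosen by name from the known biology of the transcription factor ATF4. All 9 were among the 17955 genes of the deposited table, and 8 of the 9 passed the filter on low counts that left 12903 genes to test. Chac1 did not pass. RNA came from regulatory T cells (Tregs), gated on CD4, CD25 and YFP, from spleen and lymph node of C57BL/6 mice aged 7 weeks. All mice carried Foxp3YFP-cre, a Cre recombinase with a fluorescent reporter at the locus of the Treg transcription factor Foxp3, so that deletion is limited to cells that express Foxp3. The wild-type (WT) mice were Foxp3YFP-cre TKT+/+, and the knockouts (cKO) were Foxp3YFP-cre TKTfl/fl and so lacked, in Tregs, transketolase, which acts in the non-oxidative branch of the pentose phosphate pathway. Mothers and offspring drank vehicle or DMαKG, a cell-permeable form of α-ketoglutarate, from pregnancy until the offspring were adult. This gave WT vehicle, cKO vehicle, WT DMαKG and cKO DMαKG groups with 3 mice and 3 libraries each.

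In the integrated stress response, kinases that sense amino acid shortage, unfolded protein, double-stranded RNA or haem deficiency phosphorylate the translation factor eIF2. General protein synthesis then falls, while upstream reading frames in the Atf4 mRNA allow more ATF4 protein to be made. ATF4 pairs with other leucine zipper factors at C/EBP and ATF composite elements and switches on amino acid synthesis, amino acid uptake, further transcription factors and feedback inhibitors. Because ATF4 is controlled mainly through translation, the level of its mRNA does not measure the protein, and the target genes are the usual transcript readout. In T cells, amino acid uptake through SLC7A5 and SLC3A2 is known to support activation and growth.

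The stretches below, from the RefSeq promoter table of the GRCm38.p6 assembly (the build of the deposited mm10 data), show where known types of element lie near the start sites of these genes. They are written 5′ to 3′ on the strand of the gene. The first 3 are the 250 bases upstream of Atf4 (chr15:80254934-80255183, plus strand), Ddit3 (chr10:127290543-127290792, plus strand) and Slc3a2 (chr19:8713898-8714147, minus strand), the 3 members whose levels ran most alike across the libraries. Capitals mark CCAAT boxes and the GC box GGGCGG, read on either strand, so that ATTGG is a CCAAT box on the opposite strand.
Atf4: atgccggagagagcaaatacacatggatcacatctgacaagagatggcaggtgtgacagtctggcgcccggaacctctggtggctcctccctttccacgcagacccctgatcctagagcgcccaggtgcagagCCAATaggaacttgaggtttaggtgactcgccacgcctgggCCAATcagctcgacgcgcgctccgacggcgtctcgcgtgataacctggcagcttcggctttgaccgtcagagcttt
Ddit3: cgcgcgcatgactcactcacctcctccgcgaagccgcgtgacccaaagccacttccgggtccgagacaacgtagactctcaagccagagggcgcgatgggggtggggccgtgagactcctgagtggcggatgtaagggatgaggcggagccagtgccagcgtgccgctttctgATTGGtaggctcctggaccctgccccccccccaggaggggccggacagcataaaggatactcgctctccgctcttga
Slc3a2: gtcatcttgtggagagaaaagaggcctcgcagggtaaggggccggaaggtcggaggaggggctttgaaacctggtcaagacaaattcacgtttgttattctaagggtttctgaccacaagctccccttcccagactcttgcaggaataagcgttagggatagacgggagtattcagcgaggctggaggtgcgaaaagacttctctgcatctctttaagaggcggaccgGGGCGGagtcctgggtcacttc
The next 3 are 30-base stretches around the ATF4 and C/EBP composite half-site TGATGNAA, shown because these are the members that hold its letters. They lie at Asns (chr6:7693214-7693243, minus strand), Chac1 (chr2:119351038-119351067, plus strand) and Trib3 (chr2:152344028-152344057, minus strand), and capitals mark the match, which at Chac1 and Trib3 lies on the opposite strand to the gene.
Asns: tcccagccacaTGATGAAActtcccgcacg
Chac1: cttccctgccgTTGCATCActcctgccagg
Trib3: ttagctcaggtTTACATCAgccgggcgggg
Counted from the start site, the match lies at -23 to -16 in Asns, at -193 to -186 in Chac1 and at 15 to 22 in Trib3.

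Of the 9 members, 8 had an entry in the promoter table, with 9 windows in all because Atf5 has 2 start sites there. Slc7a5 is named only. The start used for Slc3a2 lies inside the annotated span of the gene (chr19:8706882-8723369), whereas those of Atf4 (chr15:80255184-80257545), Ddit3 (chr10:127290793-127296291) and Asns (chr6:7675165-7693209) lie at the outer end of theirs. Each window of 300 bases ran from 250 bases before to 50 bases after the start, and letters were searched on both strands. TGATGNAA was found in 3 of the 8 members and in 3.97% of all 32851 windows of the table. CCAAT was found in 5 of the 8 members, against 37.4% of all windows, and GGGCGG in 6 of the 8, against 35.7%. The cyclic AMP response element TGACGTCA was in 1.79% of all windows and in 0 of the 8 members. The endoplasmic reticulum stress element, written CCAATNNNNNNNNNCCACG and overlapping the CCAAT letters, was in 0.119% of all windows and in 0 of the 8 members. Only exact letters were counted, so near matches are not excluded. On the opposite strand the Ddit3 stretch holds CCAAT, 9 bases and then GCACG in place of CCACG, which was not counted. A match is a description of letters in this window and not evidence that a factor binds there.

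The 12 libraries held between 15706791 and 18878525 estimated counts. Treg markers were high in every library, with Foxp3 at 280 to 545 CPM (the count scaled to a common library size, with TMM factors) and Il2ra, which encodes CD25, at 467 to 776 CPM. The deleted gene Tkt was lower in cKO than in WT, with a log2 fold change of -1.72 with vehicle (adjusted p = 0.0148) and -2.08 with DMαKG (adjusted p = 0.00389, edgeR quasi-likelihood test, Benjamini-Hochberg adjustment over all genes). Replicate 4 of WT vehicle, replicate 4 of cKO vehicle and replicate 3 of WT DMαKG had the 3 lowest scores on the first principal component, which held 27.9% of the variance, at -34.1, -35.1 and -31.2. The next was cKO vehicle replicate 2 at -21.6, and cKO DMαKG replicate 3 lay farthest out at the other end, at 48.4, beyond WT DMαKG replicate 2 at 23.3. The immediate-early gene Fos, which responds within minutes to stimulation and to cell handling, was at 69.6 and 70.8 CPM in the first pair of these and at 500 CPM in WT DMαKG replicate 3, within a range of 341 to 1622 CPM in the other 9. A different set of 3 libraries, WT vehicle replicate 3 and cKO DMαKG replicates 1 and 3, had low counts of the Y-linked gene Ddx3y, at 0.0555, 0.518 and 0.509 CPM, against 22.6 to 241 CPM elsewhere. The labels give no sex for the mice. The main values of Atf4, Ddit3, Slc3a2, Asns, Cebpg and Ddit4 are also given without the set that goes with them.

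Compared per length, by the deposited TPM, in which counts are divided by transcript length,, the members spanned a wide range of levels. Atf4 was highest with a mean of 363 TPM over the 12 libraries (159.5 to 515 TPM). Slc3a2, the heavy chain CD98 that carries several amino acid transporters to the cell surface, followed at 143 TPM (88.3 to 214), a range that overlapped that of Atf4. Ddit3, which encodes CHOP, a transcription factor linked to death of stressed cells, was at 63.9 TPM (37.9 to 89.7), below Slc3a2 and overlapping its range only at the edge. Slc7a5, the light chain LAT1 that pairs with SLC3A2 to import large neutral amino acids, was at 35.7 TPM (21.9 to 49.3), overlapping Ddit3. Below these, without overlap with Slc7a5, were Asns, the enzyme that makes asparagine, at 13.5 TPM (8.92 to 20.5), and Sesn2, a leucine sensor that restrains the growth kinase complex mTORC1, at 11.3 TPM (7.39 to 15.5), whose ranges overlapped each other. Atf5, a transcription factor related to ATF4, was at 4.02 TPM (2.45 to 6.5) and Trib3, a pseudokinase that feeds back on ATF4 and CHOP, at 2.69 TPM (1.09 to 4.51), and these ranges overlapped too. The deposited FPKM gave the same order of means.

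Chac1, which degrades glutathione and is one of the most inducible ATF4 targets in stressed cells, was close to undetected. It had a count of 1 in each of the 6 vehicle libraries, of 0, 2 and 0 in the WT DMαKG libraries and of 0 in all 3 cKO DMαKG libraries. A count of 0 allows up to 3 counts, or 0.169 to 0.191 CPM in a cKO DMαKG library, which covers the level in every other group. No difference in Chac1 was detectable at this depth.

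None of the 8 tested members passed an adjusted p of 0.05 in any of the 7 comparisons made with edgeR's quasi-likelihood test, which were the 4 comparisons between groups, their interaction and the 2 averaged comparisons. The share of all tested genes that passed was 0.062% for cKO against WT with vehicle, 0.186% for cKO against WT with DMαKG, 0% for DMαKG in WT, 0% for DMαKG in cKO, 0% for the interaction, 1.01% for genotype averaged over treatments and 0.00775% for DMαKG averaged over genotypes. At an unadjusted p below 0.05 the members numbered 1, 2, 0, 4, 1, 3 and 2 of 8 in the same order, and the shares of all tested genes were 7.29%, 10.4%, 2.73%, 17.3%, 3.64%, 12.8% and 15.9%. With DESeq2 the member calls were 0, 0, 0, 1, 0, 0 and 1, where the shares of all genes called by the same test were 0.775%, 1.11%, 0.0155%, 3.34%, 0.00775%, 3.09% and 2.62%. With limma voom and sample weights they were 1, 0, 0, 1, 0, 3 and 1, where the shares were 1.9%, 1.84%, 0.062%, 3.49%, 0.00775%, 8.04% and 12%. With voom, 1 call among 8 for DMαKG averaged over genotypes is therefore near the background. The comparisons share groups (each group enters several of them), so their values are given side by side and are not independent.

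Slc3a2 had the smallest p of the members. It was at 138, 145 and 94.0 CPM in WT vehicle, at 130, 157 and 105 CPM in cKO vehicle, at 166, 184 and 106 CPM in WT DMαKG and at 241, 225 and 230 CPM in cKO DMαKG. The 3 cKO DMαKG libraries were the 3 highest of the 12, and their spread of 8.30 CPM (SD, n = 3) was the smallest of the 4 groups, while the other 3 groups overlapped one another. DMαKG against vehicle in cKO gave a log2 fold change of 0.83 (SE 0.21, 95% interval 0.37 to 1.29, unadjusted p = 0.00193, adjusted p = 0.145, edgeR). The same comparison in WT gave 0.27 (95% interval -0.19 to 0.73, adjusted p = 0.999, edgeR), and the difference between these, the interaction, was 0.56 (95% interval -0.09 to 1.21, adjusted p = 0.955, edgeR). With the level of Y-linked genes as a term in the model, the interaction was 0.27. With DMαKG, cKO exceeded WT by 0.61 (SE 0.21, adjusted p = 0.335, edgeR), and with vehicle by 0.06 (adjusted p = 0.983, edgeR). DESeq2 put Slc3a2 past the threshold for DMαKG in cKO (adjusted p = 0.0156), as did voom (adjusted p = 0.0481), and so did edgeR without WT DMαKG replicate 3 (adjusted p = 0.0487), a fit that called 137 genes, 1.04%, where that with all libraries called 0. Without cKO DMαKG replicate 3 the value was 0.84 (adjusted p = 0.329, edgeR). Left without the 3 libraries at the end of the first component, the log2 fold change for DMαKG in cKO was 0.71 (adjusted p = 0.0592, edgeR), and that averaged over genotypes was 0.51 with an adjusted p of 0.041, against 0.55 and 0.156 with all libraries. The same fit called 15 genes, 0.116%, and 163 genes, 1.26%, in these comparisons, and it gave 0.41 for cKO against WT with DMαKG (adjusted p = 0.387, edgeR).

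Atf4 itself followed a similar order of libraries with a wider spread. It was at 260, 231 and 115 CPM in WT vehicle, at 203, 295 and 110 CPM in cKO vehicle, at 315, 290 and 139 CPM in WT DMαKG and at 345, 347 and 340 CPM in cKO DMαKG. The cKO DMαKG libraries were again the 3 highest in CPM, with an SD of 3.60 CPM (n = 3), whereas the SD of the other groups was 76.5 to 95.4 CPM. By the deposited TPM the SD of cKO DMαKG was 51.2, against 116 to 137 in the other groups. Its replicate 3 was then at 415 TPM, below cKO vehicle replicate 3 at 431 TPM. DMαKG against vehicle in cKO gave a log2 fold change of 0.76 (SE 0.40, adjusted p = 0.347, edgeR), and cKO against WT with DMαKG gave 0.47 (SE 0.40, adjusted p = 0.717, edgeR). With vehicle the genotypes were at 0.00 on the same scale (95% interval -0.88 to 0.88), an interval wide enough to hold a large change in either direction. Leaving out the 3 libraries at the end of the first component gave 0.48 for DMαKG in cKO (adjusted p = 0.177, edgeR) and 0.18 for cKO against WT with DMαKG (adjusted p = 0.886, edgeR), and leaving out WT DMαKG replicate 3 alone also gave 0.18 for the latter. For cKO against WT with DMαKG, the model with the level of Y-linked genes gave 0.33.

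Ddit3 was at 31.8, 28.1 and 16.6 CPM in WT vehicle, at 21.6, 38.2 and 17.6 CPM in cKO vehicle, at 35.6, 36.1 and 21.1 CPM in WT DMαKG and at 49.5, 36.1 and 53.9 CPM in cKO DMαKG. The cKO DMαKG libraries overlapped those of cKO vehicle, and their lowest exceeded the highest WT DMαKG library by less than the rounding of these values. DMαKG in cKO gave a log2 fold change of 0.85 (SE 0.32, adjusted p = 0.225, edgeR) and cKO against WT with DMαKG gave 0.59 (SE 0.32, adjusted p = 0.554, edgeR). Without the 3 libraries at the end of the first component these were 0.65 (adjusted p = 0.215, edgeR) and 0.37 (adjusted p = 0.794, edgeR). Without the 3 libraries low in Y-linked counts they were 0.49 and 0.23, where 1 cKO DMαKG library remains and is assumed to vary like the other groups. Ddit3 overlaps Mbd6 and Mars1 in the annotation and its deposited counts were fractional in all 12 libraries, so its values are uncertain where reads were shared.

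**Figure D1:**
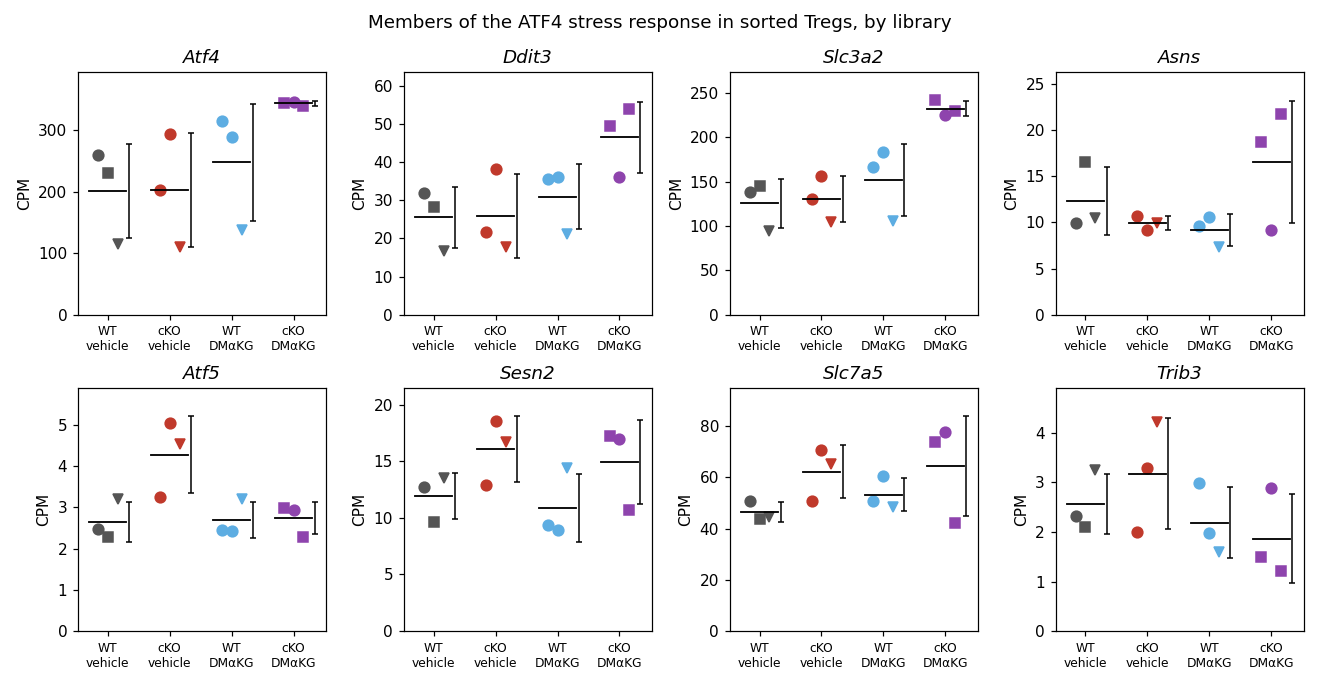
Level of the 8 tested members in each library, in CPM on linear axes that start at 0, by group; horizontal lines are group means and bars are SDs over 3 mice. Triangles mark the 3 libraries at one end of the first principal component and squares the 3 libraries with low Y-linked counts. Slc3a2 and Atf4 are highest in the 3 cKO DMαKG libraries, at 225 to 241 CPM and 340 to 347 CPM, and the triangles are the lowest points for Atf4, Ddit3 and Slc3a2.

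For Atf4, Ddit3 and Slc3a2 the 3 libraries at the end of the first component were the 3 lowest of the 12, an order that 464 genes, 3.60% of those tested, showed. None of these 3 libraries is in the cKO DMαKG group and each of the other groups holds 1 of them. Fos was low in the pair of replicate 4 libraries but not in WT DMαKG replicate 3, as given above. For Jun, another immediate-early gene, these 3 libraries gave 98.6, 114 and 384 CPM and the rest 527 to 1368 CPM. Their part in the differences of Atf4, Ddit3 and Slc3a2 was not tested beyond the fits without those libraries. The 7 B cell markers were higher in cKO DMαKG than in cKO vehicle in 7 of 7 genes, with a summed level of 42.3 to 66.7 CPM against 27.6 to 34.7 CPM in cKO vehicle, 26.2 to 28.9 CPM in WT DMαKG and 21.2 to 34.03 CPM in WT vehicle. They were also higher in 7 of 7 genes than in WT DMαKG. None of the 7 was at 0 throughout a group, and none passed the test in either comparison. Of the plasma cell markers 5 of 6 tested were higher with DMαKG in cKO (median log2 fold change 1.19) and of the macrophage and monocyte markers 7 of 9 (median 0.94), while their summed levels overlapped between all groups, at 162 to 271 CPM and at 35.1 to 128 CPM. Of the plasma cell markers, 1 was at 0 throughout each vehicle group, and no macrophage marker was at 0 throughout a group. With DMαKG in cKO, 5 of 7 dendritic cell markers (median 0.46) and 4 of 5 NK and CD8 T cell markers (median 0.23) were also higher. Erythroid markers went the other way, with 0 of 5 higher (median -2.13). Their summed levels overlapped, at 1.79 to 7.61 CPM in cKO DMαKG and 1.28 to 13.5 CPM in cKO vehicle. The part of these cells in the results was not tested. Fewer cells of a type and less RNA per cell cannot be told apart in bulk libraries.

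The genes whose standardised log2 CPM over the 12 libraries lay closest to that of Atf4, among 9775 protein-coding candidates, were Maff, Per1, Csrnp1, Pnrc1 and Tob2, with root mean square differences of 0.147, 0.151, 0.169, 0.170 and 0.176 SD units. Maff ran from 2.62 to 92.3 CPM over the libraries. Among the members Ddit3 and Slc3a2 were closest to Atf4, at 0.34 and 0.37 SD units, Asns and Slc7a5 were at 1.05 and 1.13, and Sesn2, Trib3 and Atf5 were at 1.47, 1.60 and 1.62. The members did not share a single order of libraries.

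**Figure D2:**
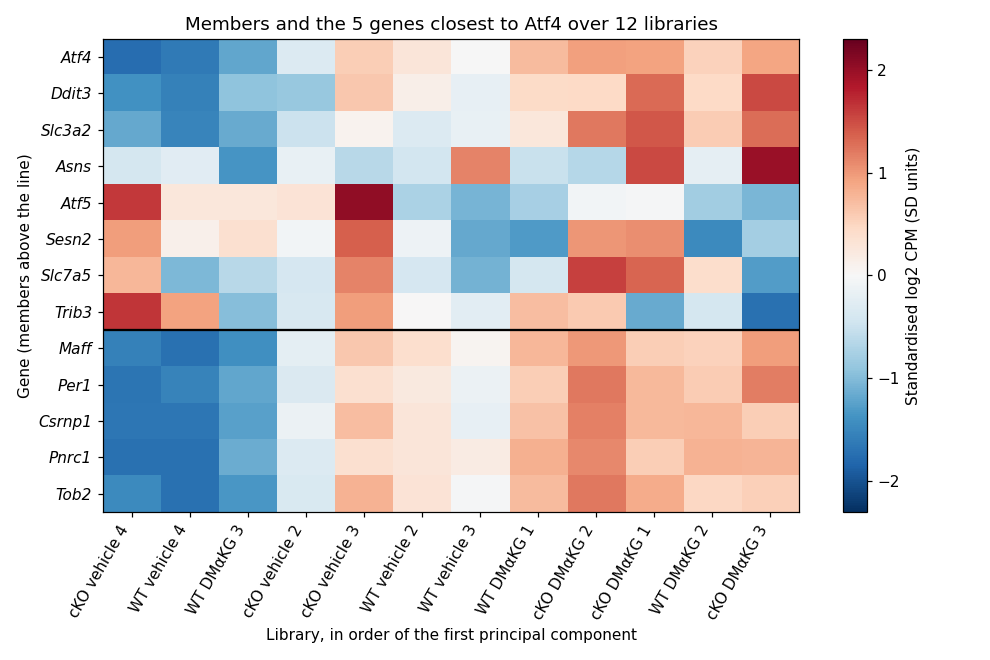
Standardised log2 CPM (SD units, mean of each gene at 0) of the 8 tested members, above the line, and of the 5 genes closest to Atf4, below it, in the 12 libraries ordered by the first principal component. Ddit3 and Slc3a2 run from low to high along with Atf4, at 0.34 and 0.37 SD units from it, while Atf5, Sesn2, Slc7a5 and Trib3 do not.

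Asns was at 9.88, 16.5 and 10.4 CPM in WT vehicle, at 10.7, 9.23 and 9.95 CPM in cKO vehicle, at 9.61, 10.6 and 7.31 CPM in WT DMαKG and at 18.7, 9.18 and 21.7 CPM in cKO DMαKG. Its 3 highest values were 16.5, 18.7 and 21.7 CPM, in the 3 libraries with low Y-linked counts, and the other 9 libraries lay between 7.31 and 10.7 CPM. As a comparison of groups, cKO against WT with DMαKG gave a log2 fold change of 0.85 (SE 0.29, adjusted p = 0.331, edgeR), DMαKG in cKO gave 0.73 (SE 0.29, adjusted p = 0.235, edgeR) and the interaction was 1.15 (SE 0.41, unadjusted p = 0.0149, adjusted p = 0.955, edgeR). Without the 3 libraries low in Y-linked counts these were 0.01, -0.11 and 0.03, with 1 cKO DMαKG library remaining, and with that level of Y-linked genes in the model they were 0.36, 0.10 and 0.27. Of all tested genes, 61, or 0.473%, had those 3 libraries as their 3 highest, and Asns was the single member among them. In the fit with groups and the Y-linked level, the slope of Asns was -0.11 on the log2 scale per log2 unit of that level (SE 0.023, unadjusted p = 0.0004), with an adjusted p of 0.956 in edgeR that does not pass, where 3 genes, 0.0233% of those tested, did.

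**Figure D3:**
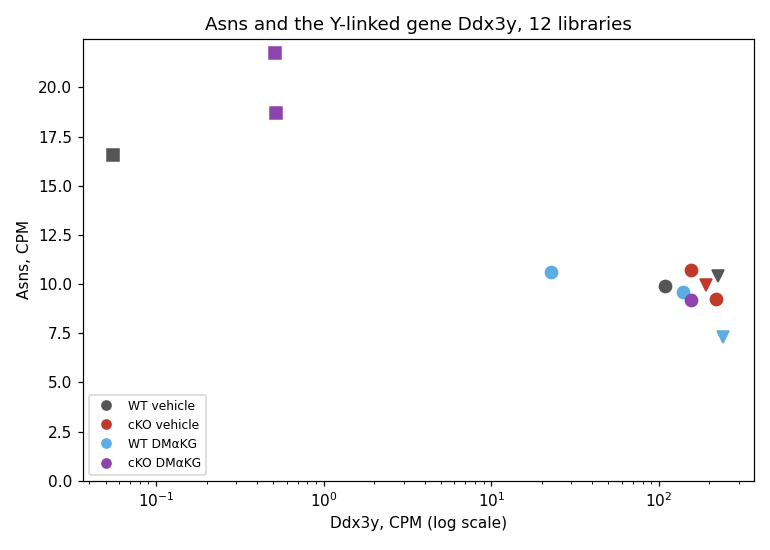
Asns (linear axis) against the Y-linked gene Ddx3y (log axis), both in CPM, 1 point per library, coloured by group; squares mark the 3 libraries with low Y-linked counts and triangles the 3 at one end of the first principal component. The squares lie at 16.5, 18.7 and 21.7 CPM of Asns and all other libraries between 7.31 and 10.7 CPM, the third cKO DMαKG library among them at 9.18 CPM.

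Among the transcription factors of the set, Ddit3 lay close to Atf4, as given above, whereas Atf5 followed a different order of libraries. It was at 2.48, 2.28 and 3.20 CPM in WT vehicle, at 3.25, 5.05 and 4.54 CPM in cKO vehicle, at 2.46, 2.44 and 3.20 CPM in WT DMαKG and at 2.98, 2.94 and 2.29 CPM in cKO DMαKG. The cKO vehicle libraries were the 3 highest of the 12, though the lowest of them lay close to single libraries of both WT groups, and the other 3 groups overlapped. With vehicle, cKO against WT gave a log2 fold change of 0.69 (SE 0.24, unadjusted p = 0.0143, adjusted p = 0.505, edgeR), and with DMαKG 0.02 (95% interval -0.52 to 0.56). In cKO, DMαKG against vehicle gave -0.64 (SE 0.24, adjusted p = 0.221, edgeR), and the interaction was -0.67 (SE 0.35, adjusted p = 0.955, edgeR). With voom the difference between genotypes with vehicle passed (adjusted p = 0.0407). Atf5 counts were low, from 36 to 92 per library, and whole in all 12 libraries as deposited. The gene overlaps Nup62 and Il4i1b in the annotation, and whether the counting assigned reads of these genes to it is not known.

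Of the genes that act on amino acid supply to mTORC1, Sesn2 was at 12.7, 9.66 and 13.5 CPM in WT vehicle, at 12.9, 18.6 and 16.7 CPM in cKO vehicle, at 9.37, 8.96 and 14.4 CPM in WT DMαKG and at 17.2, 17.0 and 10.7 CPM in cKO DMαKG. The cKO means were above the WT means with either treatment and the groups overlapped. The log2 fold change of cKO against WT was 0.43 with vehicle and 0.46 with DMαKG, and averaged over treatments 0.44 (SE 0.17, unadjusted p = 0.0217, adjusted p = 0.285, edgeR). Slc7a5 was at 50.9, 43.9 and 44.4 CPM in WT vehicle, at 50.9, 70.7 and 65.2 CPM in cKO vehicle, at 50.8, 60.4 and 48.3 CPM in WT DMαKG and at 74.0, 77.7 and 42.0 CPM in cKO DMαKG. The last group held both the 2 highest values and the lowest value of the 12. Averaged over treatments, Slc7a5 was 0.35 higher in cKO on the log2 scale (SE 0.14, adjusted p = 0.32, edgeR), and without cKO DMαKG replicate 3 the value was 0.47 and passed the threshold. With voom, Sesn2 (adjusted p = 0.0126) and Slc7a5 (adjusted p = 0.0265) passed in this averaged comparison. For DMαKG in cKO the log2 fold change of Slc7a5 was 0.05 (95% interval -0.39 to 0.49), beside 0.83 for its partner Slc3a2, and the difference between the partners was not tested.

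Trib3 was at 2.31, 2.11 and 3.25 CPM in WT vehicle, at 2.004, 3.29 and 4.23 CPM in cKO vehicle, at 2.99, 1.98 and 1.60 CPM in WT DMαKG and at 1.49, 2.89 and 1.21 CPM in cKO DMαKG. All groups overlapped. The comparison with the smallest p, DMαKG in cKO, gave a log2 fold change of -0.76 (SE 0.38, adjusted p = 0.324, edgeR), which was -0.13 without the 3 libraries low in Y-linked counts. Its counts were 19 to 82 per library.

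**Figure D4:**
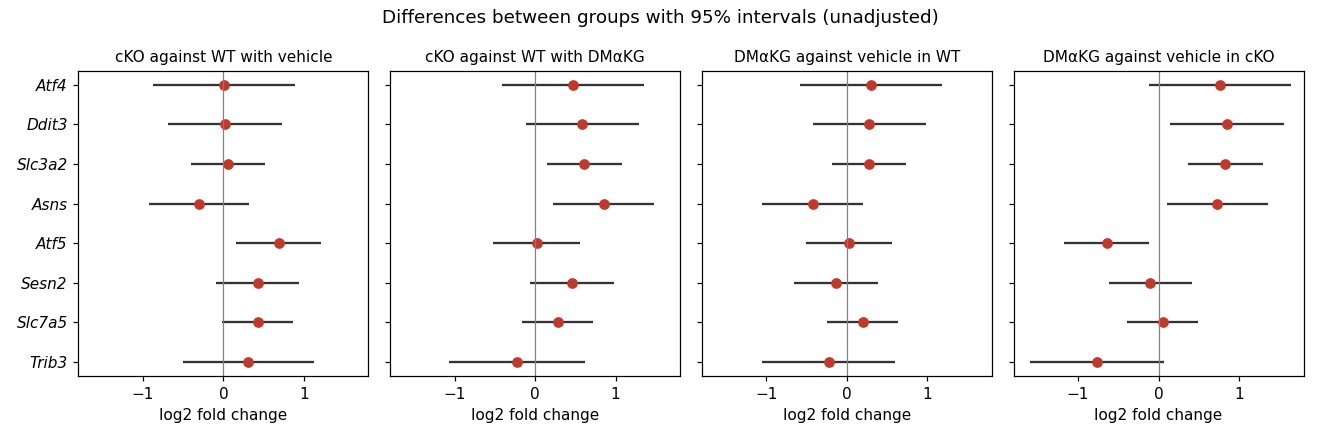
Log2 fold change of the 8 tested members in the 4 comparisons between groups, from edgeR; points are estimates and lines their 95% intervals, not adjusted for multiple tests. The intervals of Slc3a2 (0.37 to 1.29), Ddit3, Asns and Atf5 leave 0 out for DMαKG in cKO, with Atf5 below 0, and every interval for DMαKG in WT spans 0.

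Counted over the set, 7 of 8 members were higher in cKO than in WT with vehicle and 7 of 8 with DMαKG, with median log2 fold changes of 0.18 and 0.46, against 0.01 and 0.00 over all tested genes. DMαKG gave 5 of 8 higher in WT (median 0.11) and 5 of 8 in cKO (median 0.39), against 0.00 over all tested genes in both. Averaged over treatments 8 of 8 members were higher in cKO (median 0.32), where 48.9% of all tested genes were higher. These are counts of direction among genes of which none passed the test. Markers of other cells differed in the same comparison. Averaged over treatments, 6 of 7 dendritic cell markers were lower in cKO (median -0.69, 1 passed) and 7 of 7 B cell markers higher (median 0.17, 1 passed). With vehicle, 9 of 9 macrophage and monocyte markers (median -0.90, 0 passed) and 6 of 7 dendritic cell markers (median -1.30, 0 passed) were lower in cKO. The summed dendritic cell markers were then at 43.3 to 52.6 CPM in cKO against 54.04 to 89.8 CPM in WT, and those of NK and CD8 T cells at 34.2 to 37.1 CPM against 40.1 to 50.8 CPM, without overlap. Their part in the members' directions was not tested. With groups of 3, libraries did not overlap in CPM between cKO and WT given DMαKG for 3 of 8 members, all higher (Slc3a2, Atf4 and Ddit3), where 7.92% of all tested genes were higher and 7.04% lower without overlap, 15% in all. Ddit3 cleared by less than the rounding, as given above. By the deposited TPM Atf4 overlapped, at 415 in cKO DMαKG replicate 3 against 443 in WT DMαKG replicate 1. Ddit3 overlapped too, at 67.4 TPM in cKO DMαKG replicate 2 against 70.7 TPM in WT DMαKG replicate 2. For DMαKG in cKO, Slc3a2 and Atf4 were higher in CPM without overlap, against 8.91% of all genes, and Atf5 lower, against 12.2%, or 3 of 8 members against 21.1% in either direction. By TPM Atf4 overlapped here as well, at 415 in cKO DMαKG replicate 3 against 431 in cKO vehicle replicate 3. For cKO against WT with vehicle Atf5 alone was without overlap and was higher, against 8.29% of all genes higher, 7.01% lower and 15.3% in either direction. For DMαKG in WT 0 of 8 members were clear of overlap, against 4.59% of all genes higher, 3.86% lower and 8.45% in either direction.

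Other genes of the pathway were described from 8 lists with 84 tested genes, and 0 of the 84 passed in any of the 7 comparisons with edgeR and all 12 libraries. The genes named below were picked from their lists by smallest p. Of these, 2 passed in edgeR without the 3 libraries at the end of the first component. The share of all genes beside each is not a background for picked genes. How many of the 84 passed in that fit is not given. Cebpg passed for DMαKG averaged over genotypes (log2 fold change -0.92, adjusted p = 0.0287, edgeR), where 1.26% of all genes did. Cebpa passed for genotype averaged over treatments (-0.74, adjusted p = 0.0421, edgeR), where 0.524% did. It was at 5.60 to 14.8 CPM over the 12 libraries. In the same comparison with all libraries, 1 of 9 macrophage and monocyte markers was higher in cKO (median -0.42). Of the dendritic cell markers 1 of 7 was higher (median -0.69), and of the B cell markers 7 of 7 (median 0.17). The part of other cells in the Cebpa value was not tested. Among the 84 genes with all 12 libraries, the count at an unadjusted p below 0.05 was 4 for cKO against WT with vehicle (4.76%). It was 5 with DMαKG (5.95%), 1 for DMαKG in WT (1.19%) and 10 for DMαKG in cKO (11.9%). Each was below the share of all genes given above for the same comparison. For the interaction it was 5 (5.95%), above the 3.64% of all genes, for genotype averaged over treatments 7 (8.33%) and for DMαKG averaged over genotypes 9 (10.7%), both below the share of all genes. Among 8 genes for the eIF2 kinases and proteins that act on them, Impact, which restrains the amino acid sensor GCN2, had the smallest p. Its mean was 43.3 CPM in cKO vehicle and 75.2 CPM in cKO DMαKG (log2 fold change 0.80, adjusted p = 0.144, edgeR). The libraries were at 51.9, 39.1 and 38.8 CPM in cKO vehicle and at 59.9, 65.0 and 101 CPM in cKO DMαKG. Without the 3 libraries low in Y-linked counts the value was 0.59, with 1 cKO DMαKG library remaining. Oma1, a mitochondrial protease that starts the response to mitochondrial stress, was at -0.23 for cKO against WT with vehicle (adjusted p = 0.647, edgeR). Of the 12 subunits of eIF2, its exchange factor eIF2B and its phosphatase, Nck1, an adaptor that helps dephosphorylate eIF2, was at -0.53 for DMαKG in cKO (adjusted p = 0.169, edgeR) and Eif2b3 at 0.42 for DMαKG in WT (adjusted p = 0.999, edgeR).

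Cebpg, which encodes a leucine zipper partner of ATF4, lay in the opposite direction to Atf4. It was at 46.6, 48.0 and 69.0 CPM in WT vehicle, at 39.6, 44.5 and 64.4 CPM in cKO vehicle, at 30.0, 19.6 and 56.9 CPM in WT DMαKG and at 26.6, 19.4 and 20.3 CPM in cKO DMαKG. Its cKO DMαKG libraries lay below all 3 of cKO vehicle. The 3 libraries at the end of the first component were its 3 highest, an order that 603 genes, 4.67% of those tested, showed. The log2 fold change for DMαKG in cKO was -1.17 (SE 0.34, adjusted p = 0.167, edgeR), and -0.92 without those 3 libraries (adjusted p = 0.0683, edgeR). Ddit4, an ATF4 target that restrains mTORC1, was at 88.0, 111 and 143 CPM in cKO vehicle and at 30.4, 46.5 and 18.3 CPM in cKO DMαKG, without overlap. Of all tested genes, 12.2% were lower without overlap in this comparison. The log2 fold change of Ddit4 was -1.84 (SE 0.41, adjusted p = 0.132, edgeR), and its WT values were 86.0, 59.5 and 128 CPM with vehicle and 56.2, 53.6 and 109 CPM with DMαKG. Outside cKO DMαKG, the library at the end of the first component was the highest of its group. Without those 3 libraries the value was -1.64 (adjusted p = 0.0669, edgeR). Without the 3 libraries low in Y-linked counts it was -1.29, with 1 cKO DMαKG library remaining.

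In the metabolic lists, Got1, the cytosolic aspartate aminotransferase, was at 43.1, 48.8 and 31.3 CPM in WT DMαKG and at 58.5, 64.9 and 95.1 CPM in cKO DMαKG, without overlap (log2 fold change 0.83, adjusted p = 0.165, edgeR). Of all tested genes, 7.92% were higher without overlap in this comparison. Of the 9 tested enzymes of amino acid synthesis and one-carbon metabolism 8 were higher in cKO than in WT with DMαKG, with a median of 0.21. Over all tested genes 50% were higher, with a median of 0.00. Among the 13 cytosolic aminoacyl-tRNA synthetases 10 were higher in cKO than in WT with vehicle, with a median of 0.13, against 51.6% and 0.01 over all tested genes. For DMαKG in cKO, 4 of the 13 synthetases (median -0.09) and 5 of the 9 enzymes (median 0.08) were higher. Such a lean was not limited to these lists. Of 15 genes of the IRE1 and ATF6 branches of the unfolded protein response, 12 were higher in cKO than in WT with DMαKG (median 0.11). With vehicle 5 of the 15 were higher (median -0.08), and for DMαKG in cKO 10 (median 0.13). The synthetase with the smallest p, Wars, which charges tryptophan tRNA, was at 58.9, 58.3 and 68.9 CPM in WT vehicle and at 81.5, 93.6 and 84.1 CPM in cKO vehicle (log2 fold change 0.48, adjusted p = 0.334, edgeR). These groups did not overlap, where 8.29% of all tested genes were higher without overlap. Cebpg, Ddit4, Got1 and Wars were picked from their lists by smallest p, so their lack of overlap is not separate evidence. The remaining genes named by rule were Cebpa, Vars, Slc7a6, Slc1a4, Gpt2 and Sesn1, with adjusted p-values of 0.37 to 0.646 in edgeR, and, from the 15 genes of the IRE1 and ATF6 branches, Xbp1 at 0.31 (adjusted p = 0.206, edgeR) and Hyou1 at -0.29 (adjusted p = 0.319, edgeR) for DMαKG in cKO.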

How the data were processed

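The authors deposited 1 table with an estimated count, an FPKM and a TPM for each gene in each of 12 libraries, per the file headers. Per the submitters' processing notes, the mm10 build was used and the tools included featureCounts 1.5.0-p3, HISAT2 2.0.5 and DESeq2 1.16.1, without role or order. Whether counting used strand is not given. The estimated counts as deposited are not normalized, and 36.0% of them were not whole, so they were rounded for the tests, which had been planned for whole counts. FPKM and TPM as deposited are scaled by length, and they served to order genes by level. TPM also served to check the spread and overlap of Atf4 and the overlap of Ddit3.

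Groups came from the labels, and the series' design text gives 3 mice per group. Counts were filtered with edgeR 4.0.16 (filterByExpr, 12903 genes) in R 4.3.3, scaled by TMM and fitted with 1 mean per group over all 12 libraries by a quasi-likelihood model with 8 residual degrees of freedom and a robust dispersion prior, which the planned design had not specified. The common biological coefficient of variation was 19.7%. Adjustment was by Benjamini and Hochberg over all genes of a comparison, with a threshold of 0.05. CPM use the TMM-scaled library sizes, and log2 CPM a prior count of 1. Likeness to Atf4 was taken over protein-coding genes with a mean of at least 5 CPM. Every member is named, and per pathway list every gene that passed, or else the 2 with the smallest unadjusted p in the 4 comparisons between groups. The members and lists were chosen with earlier results of these data known.

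The alternatives were DESeq2 size factors, upper-quartile scaling, no low-count filter, at least 1 CPM in 6 libraries, the DESeq2 1.42.0 Wald test, limma 3.58.1 voom with sample weights, a block for the replicate number, a fit of only the groups compared, a Y-linked covariate (Ddx3y, Kdm5d and Eif2s3y), leaving out each library, and leaving out the 3 libraries at one end of the first component. A non-robust prior and leaving out the 3 libraries low in Y-linked counts were chosen after seeing the data. Intervals have a confidence level of 95%, and the limit of 3 counts covers counting error only.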

Additional observations from a re-analysis of the deposited data

How the results depend on the processing

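The number of members past the threshold stayed at 0 for cKO against WT with DMαKG, for DMαKG in WT and for the interaction under every alternative run. For cKO against WT with vehicle voom gave 1 (Atf5). For DMαKG in cKO, DESeq2 gave 1, voom gave 1 and leaving out single libraries gave 0 to 1, in each case Slc3a2. For DMαKG averaged over genotypes, DESeq2 gave 1, voom gave 1, the fit without the 3 libraries at one end of the first component gave 1 and leaving out single libraries gave 0 to 1, again Slc3a2. For genotype averaged over treatments voom gave 3 (Atf5, Sesn2 and Slc7a5) and leaving out single libraries gave 0 to 1 (Slc7a5, without cKO DMαKG replicate 3). The cause of these shifts was not tested. No called value changed sign, since edgeR called no member, and among all values of single members under the alternatives 1270 moved by less than 1 SD between replicates or kept their call, 38 moved by more and 12 came past the threshold.

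The same replicate numbers occur in both genotypes, but the labels do not say that they mark a litter or batch, and deviations of same-numbered libraries correlated at -0.27 to 0.44 across genotypes. With the replicate block 0 members passed in any comparison. Slc3a2 for DMαKG in cKO was then 0.62 (adjusted p = 0.493, edgeR), and the DMαKG blocks use only the numbers that both treatments share. Counts over all genes moved more than those of the members, from 8 to 245 with voom for cKO against WT with vehicle, from 24 to 237 with DMαKG, from 130 to 1038 when averaged over treatments, from 0 to 450 for DMαKG in cKO and from 1 to 1546 for DMαKG averaged over genotypes. DESeq2 gave 389 and 331 in these last comparisons, edgeR without WT DMαKG replicate 3 gave 137 and 619, and edgeR without the 3 libraries at the end of the first component gave 15 and 163. With the block they were 0 for cKO against WT with DMαKG and 12 averaged over treatments. Groups of 3 mice, with SDs of Atf4 reaching 95.4 CPM, limit what differences could be detected, as do the low counts of Trib3, Atf5 and Chac1.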
